A study of Mus musculus with 4 samples.

Results

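Goblet cells fill the gut lumen with mucus, and 9 goblet cell and intestinal mucin genes were followed here. They were the mucins Muc1, Muc2 and Muc13 and the secreted products Tff3, Fcgbp and Zg16. The others were the folding enzyme Agr2 and the transcription factors Spdef and Atoh1. All 9 genes were chosen by gene symbol. The annotation assigns them 13 probe sets of 45037, or 9 genes of 18193, and every probe set is described. The mice were C57BL/6, and in the NK318.1 groups germ-free (GF) animals had been monocolonized with 100000000 Lactobacillus NK318.1 and sampled 2 weeks later, whereas the GF groups carried no bacteria. All were kept in gnotobiotic isolators. From each kind of mouse came an array of intestinal epithelial cells (IEC) and an array of Peyer's patch (PP) cells, the PP being lymphoid follicles of the gut wall, so that the groups were NK318.1-IEC, GF-IEC, NK318.1-PP and GF-PP. Mice were pooled and each group had 1 array, so no value has an error between animals, no difference could be tested, and each ratio compares only the pair of arrays it was made from.

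The mucus gel is built from MUC2, a very large protein that is folded in the endoplasmic reticulum, covered with O-linked glycans in the Golgi, packed into granules and expanded after release. FCGBP, TFF3 and ZG16 are secreted with it, whereas MUC1 and MUC13 stay in the cell membrane as part of the glycocalyx. ATOH1 commits intestinal progenitors to the secretory lineage, and SPDEF acts after it in goblet cell maturation. Mucus formation in mice is known to depend on gut bacteria, and the comparison of colonized and GF mice addresses which genes of the intestine differ when a single strain is added.

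In IEC, Muc1 and Muc2 had the highest and the lowest ratio of NK318.1 to GF among the 9 genes, and the DNA around their start sites is shown for that reason. Both are the plus strand of RefSeq in GRCm38.p6, 5′ to 3′, with 250 bases before and 50 after the start, at chr3:89228806-89229105 for Muc1 and chr7:141690090-141690389 for Muc2. Capitals mark 4 motifs searched on both strands: CAGCTG and CACCTG, which are E-boxes (the kind of site bound by factors of the ATOH1 class), the TATA box TATAAA, and the GC box GGGCGG.
Muc1: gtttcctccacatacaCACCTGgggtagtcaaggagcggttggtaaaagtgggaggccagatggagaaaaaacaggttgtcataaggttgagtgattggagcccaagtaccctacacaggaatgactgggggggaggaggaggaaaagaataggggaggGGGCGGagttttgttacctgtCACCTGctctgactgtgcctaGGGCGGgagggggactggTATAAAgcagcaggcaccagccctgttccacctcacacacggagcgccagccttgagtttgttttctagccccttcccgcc
Muc2: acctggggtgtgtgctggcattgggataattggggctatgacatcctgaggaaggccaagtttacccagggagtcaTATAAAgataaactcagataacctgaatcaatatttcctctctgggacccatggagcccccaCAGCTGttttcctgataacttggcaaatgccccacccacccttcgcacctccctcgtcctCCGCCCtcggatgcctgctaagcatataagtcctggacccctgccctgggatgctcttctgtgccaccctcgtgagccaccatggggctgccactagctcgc
Muc1 held CACCTG 234 and 70 bases before the start, GGGCGG 91 and 49 bases before it, and TATAAA at 31 bases. Muc2 held CAGCTG at 112 bases, TATAAA at 174 bases and CCGCCC, the GC box on the other strand, at 52 bases. RefSeq windows matched 7 of the 9 genes. CAGCTG was found for Fcgbp and Muc2, against 16.3% of all 32851 windows, and CACCTG for Fcgbp and Muc1, against 20.2%. TATAAA was found for Muc1 and Muc2, against 13.6%, and GGGCGG for Atoh1, Muc1 and Muc2, against 35.7%. A match is a description of letters and says nothing about binding.

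Some differences between the arrays concerned the whole series. Median intensity was alike, between 22.97 and 23.3 on the 4 arrays. The 3′ to 5′ signal ratio of Actb, which grows as RNA breaks down, was 4.10 on NK318.1-IEC and 2.73 on GF-IEC, and lay between 1.60 and 1.74 in PP. The X-inactivation transcript Xist was at 4889 and 4586 on the NK318.1 arrays, against 46.7 and 21.7 on the GF arrays, and the Y-linked Eif2s3y was at 2.4 and 3.0, against 147 and 300.1. Colonization and this sex-linked difference between the pools cannot be told apart in any ratio below. In the IEC ratios colonization also cannot be told apart from the difference in RNA breakdown. The 3′ to 5′ ratio of Gapdh differed there as well, at 1.61 on NK318.1-IEC and 1.11 on GF-IEC. Signals under a floor of 15.5 were raised to it, and a gene was taken as measured in IEC or PP when at least 1 of the NK318.1 and GF arrays exceeded that value.

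The 9 genes were first compared between tissues to check the labels. In the NK318.1 arrays 9 of 9 had at least 2-fold more signal in IEC than in PP, where 18.4% of 14030 genes did. In the GF arrays 8 of 9 did, against 16.0% of 14036 genes, and Muc1 was the exception at 1.23-fold. Among those of the 9 genes above the floor in PP, the ratio was highest for Zg16 and then for Tff3. Zg16 was at 443-fold in the NK318.1 arrays and 451-fold in the GF arrays, and Tff3 at 333-fold and 303-fold. The PP signals of Zg16, 17.0 in NK318.1 and 16.3 in GF, stood just above the floor. Muc2, Agr2 and Spdef lay under the floor in PP, so their ratios are lower bounds and have no place in this order. The IEC signal of Muc2 was at least 94.0-fold higher in the NK318.1 arrays and at least 119-fold higher in the GF arrays. The epithelial label thus went with these genes, and their PP signals were at most 36.5. In bulk samples of this kind fewer cells of a type and less RNA per cell cannot be told apart.

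**Figure D1:**
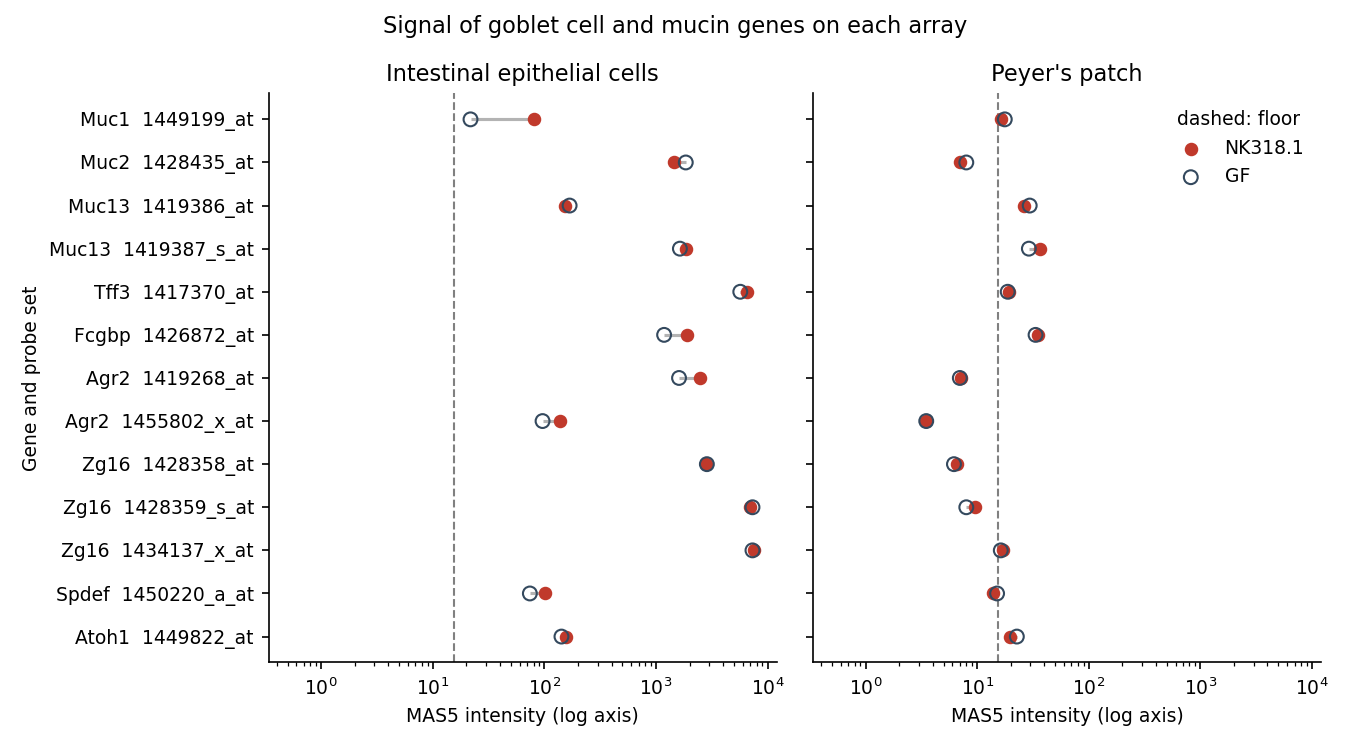
Deposited MAS5 intensity (log axis) of each probe set of the 9 genes in intestinal epithelial cells (left) and Peyer's patch (right), with filled points for NK318.1, open points for GF and a dashed line at the floor of 15.5. Only Muc1 has its IEC points more than 2-fold apart, at 80.6 and 21.8, and in PP no point exceeds 36.5.

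In IEC the membrane mucin Muc1 was the only one of the 9 genes at least 2-fold apart. Its probe set 1449199_at, for a gene at chr3:89229056-89233381, read 80.6 on NK318.1-IEC and 21.8 on GF-IEC, which is 3.69-fold (log2 1.89). The GF signal stood just above the floor, and the PP signals were as low, at 16.4 in NK318.1 and 17.7 in GF. Of all 13874 genes measured in IEC, 99.5% had a lower ratio than Muc1. The count was 1 of 9 genes at least 2-fold higher, against 2.63% of measured genes, and 0 of 9 at least 2-fold lower, against 1.54%.

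Muc2, the gel-forming mucin at chr7:141690340-141754691, had the lowest ratio. Probe set 1428435_at read 1458 on NK318.1-IEC and 1851 on GF-IEC, a ratio of 0.788 (log2 -0.35). With 1 probe set taken per gene, Muc2 was the only one of the 9 genes below 0. Of measured genes, 16.5% lay lower still. Its PP signals, 7.0 in NK318.1 and 8.0 in GF, were both under the floor and gave no ratio.

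Of the proteins secreted with MUC2, Fcgbp differed most. Fcgbp encodes a large mucus protein with von Willebrand factor D domains that is cross-linked in the gel (chr7:28071236-28120864). Probe set 1426872_at read 1914 on NK318.1-IEC and 1184 on GF-IEC, or 1.62-fold (log2 0.69), and on PP 35.0 in NK318.1 and 33.4 in GF. The lectin Zg16, which binds the peptidoglycan of Gram-positive bacteria, showed almost the same signal on both IEC arrays. The probe set that represents it, 1434137_x_at, read 7518 on NK318.1-IEC and 7332 on GF-IEC (log2 0.04). The other probe sets of Zg16 (chr7:127050156-127052675) differed as little. Probe set 1428358_at read 2830 on NK318.1-IEC and 2861 on GF-IEC, and 1428359_s_at read 6956 and 7335, with log2 ratios of -0.02 and -0.08. The trefoil peptide Tff3, which protects and helps to repair the epithelium (chr17:31125306-31129611), was measured by 1417370_at. It read 6500.0 on NK318.1-IEC and 5700.3 on GF-IEC, which is 1.14-fold (log2 0.19).

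Agr2 encodes a disulfide isomerase of the endoplasmic reticulum that mice need to make MUC2 (chr12:35992925-36004081). Both of its probe sets were higher on NK318.1-IEC. The one that represents the gene, 1419268_at, read 2502 on NK318.1-IEC and 1611 on GF-IEC, or 1.55-fold (log2 0.64), and the other, 1455802_x_at, read 138 and 96.4 (log2 0.51). On PP all 4 readings of Agr2 were under the floor, between 3.50 and 7.10. Together with Muc1 and Fcgbp this made 3 of 9 genes at least 1.5-fold higher in NK318.1, a limit that 9.31% of measured genes passed. The same 3 genes were the only ones of the 9 past it.

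The second membrane mucin, Muc13 (chr16:33794037-33819929), stood near equality, and its probe sets differed in sign. The representing one, 1419387_s_at, read 1846 on NK318.1-IEC and 1640 on GF-IEC (log2 0.17), whereas 1419386_at read 152 and 169 (log2 -0.15). In PP, too, they had opposite signs, with log2 0.33 for 1419387_s_at, at 36.5 in NK318.1 and 29.1 in GF, and -0.17 for 1419386_at, at 26.4 and 29.6. A direction for Muc13 therefore depends on the probe set taken.

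The transcription factors were less than 1.5-fold apart. Atoh1 (chr6:64729125-64731245, probe set 1449822_at) read 157 on NK318.1-IEC and 142 on GF-IEC, or 1.10-fold (log2 0.14). Spdef (chr17:27714446-27731003, probe set 1450220_a_at) read 101 on NK318.1-IEC and 74.2 on GF-IEC, or 1.37-fold (log2 0.45), and its PP signals of 13.8 in NK318.1 and 15.1 in GF were under the floor. Neither factor stood outside the central 95% of measured genes, which ran from log2 -0.86 to 1.03. Of the 9 genes Muc1 alone did.

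Over the 9 genes the median log2 ratio in IEC was 0.19, against 0.02 over all measured genes, and 8 of 9 were above 0, against 52.4%. That count depends on the probe set taken, since others gave log2 -0.15 for Muc13, and -0.02 and -0.08 for Zg16. Without Muc1 the other 8 ranged from -0.35 to 0.69 with a median of 0.18. Set against Muc2 on the same arrays, the log2 ratio was higher by 1.04 for Fcgbp, 0.98 for Agr2, 0.80 for Spdef, 0.53 for Tff3 and 0.38 for Zg16. Because Muc2 had the lowest ratio of the 9 genes, each of these gaps is above 0 by construction. The quartiles over all genes measured in IEC were log2 -0.23 and 0.28. No spread between mice is known for any of the gaps, and whether these genes differ in ratio was not tested.

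In PP none of the 9 genes was 2-fold apart in either direction, where 0.149% of the 12736 genes with a ratio passed that limit upwards and 0.573% downwards in NK318.1. The floor was passed by 6 of the 9 genes, and their log2 ratios ran from -0.19 for Atoh1, at 19.9 in NK318.1 and 22.7 in GF, to 0.33 for Muc13. Muc1 was at -0.12, Tff3 at 0.05, Zg16 at 0.06 and Fcgbp at 0.07. The median of these 6 was 0.06, against -0.03 over all measured genes. With signals this close to the floor, a difference in the goblet cells of PP was not detectable here.

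Markers of other cells moved between the same IEC arrays. Over all genes measured in IEC, 2.63% were at least 2-fold higher in NK318.1, 1.54% at least 2-fold lower and 52.4% above 0. The 5 epithelial markers Epcam, Cdh1, Krt8, Krt18 and Krt19 summed to 19390 on NK318.1-IEC and 19760 on GF-IEC, and their median log2 ratio was -0.06. Relative to that median the log2 ratio was 1.95 for Muc1, 0.76 for Fcgbp, 0.70 for Agr2 and -0.28 for Muc2. A shift this small could not change any of these signs. All 4 leukocyte markers were at least 2-fold lower in NK318.1, with a summed signal of 125 against 604 in GF, and Ptprc, which encodes CD45, read 23.1 against 271. For Laptm5 the 3 other probe sets lay between log2 -0.835 and 0.06, whereas the other one of Coro1a gave -2.41. T cell markers were at least 2-fold lower for 2 of 5 genes and B cell markers for 0 of 3. Of the enterocyte markers, 1 of 8 was above 0 and the summed signal was 24450 on NK318.1-IEC and 34130 on GF-IEC. Their median log2 ratio was -0.505, which is below the ratio of Muc2. Markers of Paneth cells, the defensin-secreting cells of the crypt base, were at least 2-fold lower for 4 of 5 genes, with sums of 16560 and 32670.

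Genes of stomach and pancreas were much brighter on NK318.1-IEC than on GF-IEC. Gastric mucosa markers were at least 2-fold higher for 12 of 15 genes, against 2.63% of all measured genes. Their summed signals were 37100 in NK318.1 and 553 in GF. The gastrokine Gkn2 read 9949 against 12.5, which is at least 641-fold, whereas the parietal cell pump subunits Atp4a and Atp4b were at log2 0.37 and 0.09. Pancreatic acinar markers were at least 2-fold higher for 8 of 9 genes, against the same 2.63%, with sums of 13580 in NK318.1 and 2957 in GF. On PP the gastric sums were 442 in NK318.1 and 488 in GF. Muc1 is also made by the surface cells of the stomach, and 3 goblet-associated genes described below, Tff1, Tff2 and Muc5ac, are on the gastric list. The part of these cell types in the ratios of the 9 genes was not tested.

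**Figure D2:**
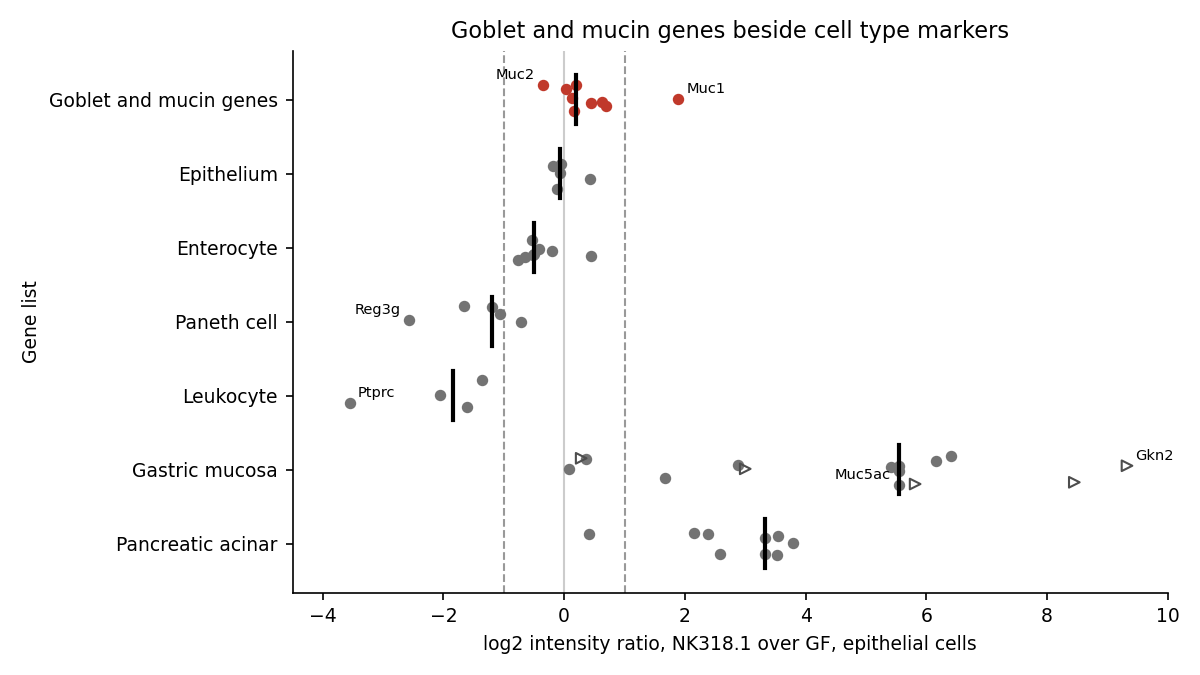
Log2 ratio of NK318.1 over GF in intestinal epithelial cells for the 9 genes (red) and for cell type marker lists (grey), with black bars at each list's median, dashed lines at 2-fold and open triangles where 1 array was under the floor and the ratio is a bound. The 9 genes have a median of 0.19 and the epithelial markers one of -0.06, whereas the leukocyte list is at -1.84 and the gastric list at 5.54.

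A list of other goblet-associated genes moved in both directions in IEC. Of 39 measured genes on that list, 8 were at least 2-fold higher, 3 at least 2-fold lower and 26 above 0, with a median log2 ratio of 0.23. Over all genes measured in IEC the shares were 2.63% higher, 1.54% lower and 52.4% above 0, with a median of 0.02. The highest were the trefoil genes Tff2, at 3162 in NK318.1 and 37.1 in GF, and Tff1, at 10183 in NK318.1 and 218 in GF, both of which are gastric. Also at least 2-fold higher were Rab27a, a GTPase of granule docking, at 72.5 and 26.1 (log2 1.47, with 0.17 for its other probe set), and Retnlb, a bactericidal resistin-like protein, at 42.2 against 11.5, which is at least 2.72-fold. The 3 lower genes encode secreted proteins. The lectin Itln1 read 2921 in NK318.1 and 6681 in GF (log2 -1.19), the ribonuclease Ang4 4716 and 9859 (log2 -1.06, with -1.46 for its other probe set), and the lectin Reg4 668 and 1358 (log2 -1.02). Itln1 and Ang4 are also on the Paneth list. Leaving out Tff1 and Tff2, which are on the gastric list, 6 genes of the goblet list were at least 2-fold higher and its median was 0.21.

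Of the mucins beyond Muc1, Muc2 and Muc13, 5 were measured in IEC. The gastric gel-forming mucin Muc5ac read 1158 on NK318.1-IEC and 24.8 on GF-IEC, or 46.7-fold. The membrane mucin Muc4 read 295 and 120 (log2 1.30), although its other probe set gave 0.02. Muc3, a membrane mucin of the enterocyte brush border, read 1567 in NK318.1 and 1615 in GF (log2 -0.04). The median over these 5 genes was 0.23.

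The enzymes that build mucin O-glycans had a median below 0. Of 34 measured genes, 15 were above 0, the median was log2 -0.08, 2 were at least 2-fold higher and 1 at least 2-fold lower, against 52.4% above 0, 2.63% higher and 1.54% lower over all genes. The higher ones were A4gnt, which adds the terminal N-acetylglucosamine of gastric gland mucin, at 76.0 in NK318.1 and 30.3 in GF, and the fucosyltransferase Fut2, at 80.0 and 38.3. A second probe set of Fut2 gave log2 -0.20. The lower one was B3gnt5, a glycosyltransferase best known for glycolipid synthesis, at 24.7 and 54.0 (log2 -1.13).

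Regulators of the secretory lineage centred on equality, with a median log2 ratio of -0.01 over 37 genes and 18 above 0, against 52.4% of all genes. Those at least 2-fold higher, 3 of 37 against 2.63%, were Neurog3, the endocrine progenitor factor, at 252 in NK318.1 and 74.9 in GF, the endocrine factor Nkx2-2, at 47.4 and 16.0, and Ern2. Ern2 encodes IRE1β, the stress sensor of goblet cells, and read 195 on NK318.1-IEC and 87.8 on GF-IEC (log2 1.15). None was at least 2-fold lower, and the lowest was Gfi1 at -0.80.

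The genes of protein folding in the endoplasmic reticulum, on which mucin secretion relies, had a median log2 ratio of 0.13 over 35 genes, with 22 above 0, against 52.4% of all genes. Those at least 2-fold higher, 3 of 35 against 2.63%, were Ern2 again, the pancreatic disulfide isomerase Pdia2, at 68.2 in NK318.1 against 13.8 in GF, and Agr3, a close relative of Agr2, at 67.7 in NK318.1 and 31.4 in GF. The lowest was the chaperone cofactor Dnajb9 at -0.83. Agr2 and Agr3 thus both read higher on NK318.1-IEC, at 1.55-fold and 2.16-fold.

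**Figure D3:**
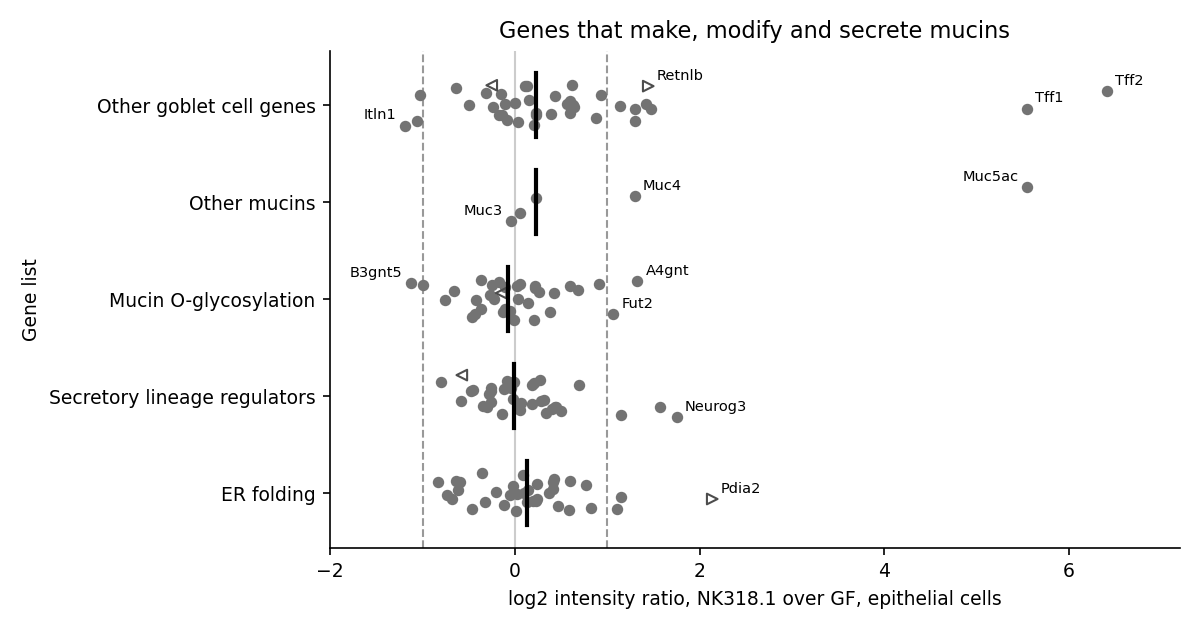
Log2 ratio of NK318.1 over GF in intestinal epithelial cells for genes related to mucus, 1 point a gene, with black bars at each list's median, dashed lines at 2-fold and open triangles where 1 array was under the floor. The medians lie between -0.08 and 0.23, and Tff1, Tff2 and Muc5ac stand apart at 5.54, 6.41 and 5.55.

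In PP no gene of these 5 lists was 2-fold apart, where 0.149% of all measured genes passed that limit upwards and 0.573% downwards. With shares this low, that count says little about the lists. Medians were 0.06 over 20 goblet genes, 0.22 over 3 mucins, -0.04 over 32 glycosylation genes, -0.05 over 28 regulators and -0.20 over 31 folding genes. The goblet list ran from Scin at -0.91 to Bcas1 at 0.61, and the mucins from Muc5ac at 0.05 to Muc5b at 0.25. The glycosylation genes ran from St6galnac4 at -0.58 to St6galnac2 at 0.33, the regulators from Jag1 at -0.96 to Ehf at 0.30, and the folding genes from Creld2 at -0.58 to Dnajb9 at 0.23. Other probe sets had the opposite sign for Jag1, at 0.42, and for Ehf, at -0.09, and for Bcas1 they lay between 0.003 and 0.20. Of the folding genes 3 of 31 were above 0, against 42.5% of all measured genes in PP. The summed leukocyte signal there was 17700 in NK318.1 and 16940 in GF.

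The pattern of Muc2 over the 4 arrays, with each gene's mean subtracted, was set against the 12260 genes measured in both tissues. Muc2 itself lay under the floor on both PP arrays and was set to it there, so each distance is to a floor value and the order of the genes is not settled. Among those nearest were the lectin Lgals4, at a Euclidean distance of 0.10 on the log2 scale, the keratin Krt20 at 0.25, the tight junction gene Cldn7 at 0.33, the glycosyltransferase B4galnt2 at 0.38 and Gm1123 at 0.40. Lgals4 read 6350 on NK318.1-IEC and 8326 on GF-IEC (log2 -0.39), with 69.7 and 64.0 on PP. Taken over the 13874 genes measured in IEC, which include genes under the floor in PP, the nearest 5 were Fbp2 at 0.08, Lgals4, Klf5 at 0.15, Muc3 at 0.22 and Dsp at 0.22. These distances rest on 4 arrays and mostly on the gap between IEC and PP.

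The order of the 9 genes in IEC was nearly the same under other ways of treating the intensities. Muc1 stayed at least 2-fold higher in NK318.1 in each, between log2 1.11 and 1.98, and Muc2 stayed below 0, between -0.40 and -0.28. Fcgbp lay between 0.62 and 0.76 and Agr2 between 0.53 and 0.70. Muc13 and Zg16 were the only ones to cross 0, between -0.15 and 0.24 for Muc13 and between -0.02 and 0.10 for Zg16. Several of these settings cannot change a gene that has 1 probe set and lies far above the floor. Leaving out gastric and pancreatic genes could change none of the 9 genes, Muc1 included, because none is on those lists.

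**Figure D4:**
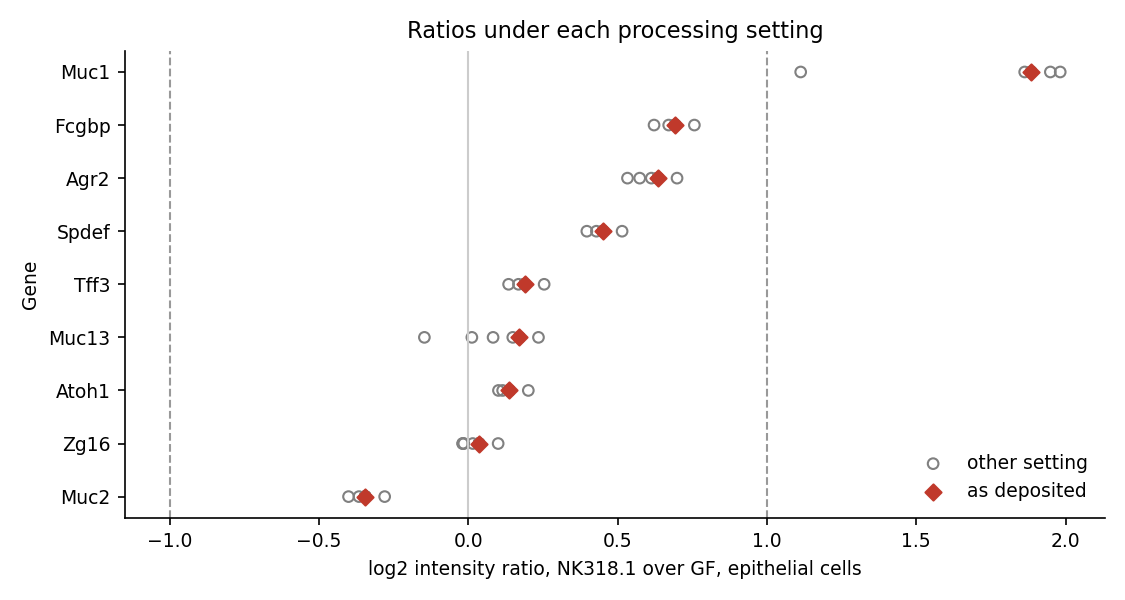
Log2 ratio of NK318.1 over GF in intestinal epithelial cells for each of the 9 genes, with red diamonds for the intensities as deposited and open circles for each other setting, and dashed lines at 2-fold. Muc1 lies between 1.11 and 1.98 and Muc2 between -0.40 and -0.28.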

How the data were processed

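RNA of IEC and PP cells from pooled mice was hybridized to 4 single-colour 3′ expression arrays. The deposited values were intensity per probe set on a linear scale, which the authors had made with MAS5. Version and settings of MAS5 were not given in the sources used here. Intensities were used without further scaling. After 64 controls were set aside, 34945 probe sets named 1 gene, 932 several and 9160 none, and only the first kind was used. Symbols were updated through Entrez identifiers for 34741 probe sets (RefSeq, GRCm38.p6). A gene was represented by its probe set of highest mean log2 intensity. As floor served the 40th percentile of an array's intensities, taken as the median of the 4 arrays. Ratios against a value under it are bounds, given as "at least". Genes were counted at 2-fold, and levels of different genes were not compared.

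The 9 genes and the lists were chosen with earlier results of these data known. Of each list the genes at least 2-fold apart are named, at most 4 highest and 4 lowest per tissue, or else the extremes, and the 5 genes nearest to Muc2. Muc3, Fbp2, Klf5 and Dsp fall outside this rule and were picked once their values had been seen. Other settings tried were centring on the median, quantile normalization, floors at the 25th or 60th percentile or none, the mean over probe sets, leaving out less specific probe sets, and limits of 1.5-fold and 4-fold. Subtracting the epithelial median and leaving out gastric and pancreatic genes were chosen after seeing the data. The choice of probe set and the ratios of NK318.1 to GF were checked on simulated arrays. Known changes were put there only into genes well above the floor, and the other steps were not simulated. Python 3.11.15, numpy 2.4.6, pandas 2.3.3 and matplotlib 3.10.9 were used.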

Additional observations from a re-analysis of the deposited data

Results flagged for a closer look

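The ratio of NK318.1 to GF had opposite signs in the 2 tissues for some of these genes, and whether IEC and PP differed in it was not tested, with 1 array per group. Muc1 was at log2 1.89 in IEC and -0.12 in PP, where its signals stood just above the floor. Atoh1 was at 0.14 in IEC and -0.19 in PP, both less than 1.5-fold apart. The median over the genes of protein folding in the endoplasmic reticulum was 0.13 in IEC and -0.20 in PP.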

How the results depend on the processing

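No paired analysis was possible because every group consisted of a single array. Of the 9 genes, those at least 2-fold higher in NK318.1 IEC numbered 1 under every scaling, floor and choice of probe sets tried, 3 at a limit of 1.5-fold and 0 at a limit of 4-fold. The log2 ratio of Muc1 was 1.11 with the floor at the 60th percentile, against the 1.89 reported, since its GF signal was then raised to that floor. Of 121 ratios of the 9 genes recomputed under other settings, the other 120 moved by less than 1.5-fold. Many of these could not move, because most settings leave a gene with 1 probe set and signals far above the floor unchanged. Leaving out gastric and pancreatic genes could move none of them, since none of the 9 genes is on those lists. Leaving out less specific probe sets put Muc13 at -0.15 in IEC and -0.17 in PP and left Spdef without a value. The goblet list had 8 genes at least 2-fold higher as reported and 5 with the mean over probe sets, without less specific probe sets, or with the floor at the 60th percentile. Its 3 lower genes became 1 after subtracting the epithelial median. The folding list had 1 higher gene in place of 3 with the floor at the 60th percentile. The glycosylation list had 0 lower genes in place of 1 with that floor or with the mean over probe sets, and 2 under median centring. The other mucins had 1 higher gene in place of 2 with the mean over probe sets, without less specific probe sets, or without gastric genes. The number of arrays limits precision, since no spread between mice can be had from pools. Signals within a few units of the floor carry little information, which applies to Muc1 in GF-IEC and to most of the 9 genes in PP.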
